A study of Homo sapiens with 5 samples.

Results

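The comparison sets cells cultured with leukotriene C4 against unstimulated cells of the same line, MonoMac6, by the 2 arrays of 5 in the series whose sample titles name these conditions. MonoMac6 is an established human monocytic line, and it was cultured to near confluency before any compound was added. Leukotriene C4 was given at 100 nM from a stock in DMSO and the cells were harvested 12 h later. Leukotriene B4, lipoxin A4 and lipoxin B4 were given to the same line at the same dose and for the same time, on 1 array each, and these 3 arrays are used below to see which differences belong to leukotriene C4. The labels do not say whether DMSO was also added to the unstimulated culture. Each condition is 1 culture of 1 cell line on 1 array, so no value has a measured error and no difference was tested.

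Leukotriene C4 is a cysteinyl leukotriene: 5-lipoxygenase, helped by its activating protein FLAP, makes leukotriene A4 from arachidonic acid, and leukotriene C4 synthase joins that epoxide to glutathione. Transporters export the conjugate, and gamma-glutamyl transferases and dipeptidases outside the cell trim it to leukotrienes D4 and E4. The receptors CYSLTR1 and CYSLTR2 couple mainly to Gq and calcium release, and in monocytes and macrophages cysteinyl leukotrienes are known for chemokine release and migration.

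The values are signals, that is array intensities after 1 scaling factor per array. Signals under a floor of 48.7, the middle of all probe sets, were set to that floor, and 15374 genes exceeded it on at least 1 array. Of these, 9113 had a mean signal over 200 across the 5 arrays. Among genes of that brightness or above the arrays of the 3 other compounds differed from each other by a root mean square of 0.30 on the log2 scale at signals from 200 to 500, 0.20 from 500 to 2000 and 0.15 above 2000. The difference between leukotriene C4 and unstimulated cells had a root mean square of 0.37, 0.26 and 0.21 in the same classes. Some differences below are given with their multiple of that spread, taken over the 500 genes of nearest signal, because no replicate exists to give another. Among dim genes that spread was larger, at 0.50 for signals from 100 to 200 and 0.38 under 100, where many values lie at the floor. A 2-fold difference there is therefore a smaller multiple than among bright genes.

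The line carried monocytic transcripts. LYZ, which encodes lysozyme, had 49095 unstimulated and 48957 with leukotriene C4, MNDA had 12576 and 15542, and SPI1, the myeloid master transcription factor PU.1, had 7467 and 5689. CD14 was dim at 225 and 319, and FCGR1A lay under the floor on all 5 arrays. Of the markers fixed for other cell types, 3 were bright, NKG7 with up to 8196, TPSAB1 with up to 39600 and MBP with up to 1616. The other markers of T and NK cells, B cells, red cells and platelets, mast cells and eosinophils, fibroblasts and endothelium, epithelium and liver, and nerve and muscle had 299 or less on every array. The leukotriene C4 array was the highest in the control probe sets for ribosomal RNA. The other compounds were above unstimulated as well, at 1.36 to 5.67 times its signal. The 18S rRNA probe sets read 14, 16.5 and 3.41 times the unstimulated signal and the 28S probe sets 4.54 and 2.88 times, the highest of the 5 arrays for each, while the ratio of GAPDH 3′ to 5′ signal was 1.06 against 1.03 and the median added spike transcript differed by -0.03 on the log2 scale. The part of ribosomal RNA in the results below was not tested.

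With leukotriene C4, 184 of 15374 genes were at least 2-fold higher than in unstimulated cells (1.2%) and 254 were at least 2-fold lower (1.65%). Most of these were dim: the median mean signal was 82.2 for the higher and 84.3 for the lower genes, and in 105 and 143 of them 1 of the 2 values lay at the floor. Over signal 200 the counts were 11 of 9113 higher (0.121%) and 30 lower (0.329%). Against the same unstimulated array, leukotriene B4 gave 11 and 26, lipoxin A4 gave 8 and 14, and lipoxin B4 gave 12 and 28. By this count alone leukotriene C4 therefore lay close to leukotriene B4 and lipoxin B4.

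**Figure D1:**
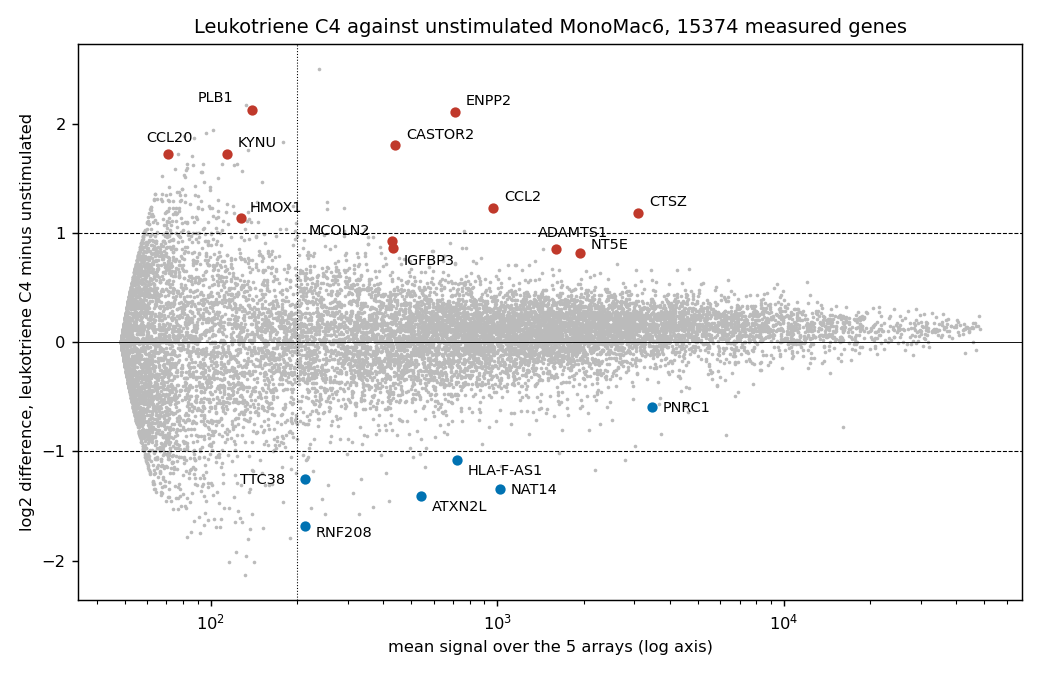
Each point is 1 of 15374 genes: the x axis is its mean signal over the 5 arrays (log axis) and the y axis is the log2 difference of leukotriene C4 minus unstimulated. Dashed lines mark 2-fold and the dotted line a signal of 200. ENPP2, CASTOR2, CCL2 and CTSZ lie above the 2-fold line among bright genes, and most other genes past 2-fold are dim.

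The 4 compounds share their unstimulated array, so a gene was also asked to lie outside all the others. Over signal 200, leukotriene C4 was at least 1.5-fold above each of the other 4 arrays in 11 genes (0.121%) and below each of them in 14 (0.154%). The same count was 1 and 7 for leukotriene B4, 2 and 9 for lipoxin A4 and 4 and 7 for lipoxin B4. The unstimulated array, which lacks a compound, gave 17 and 15. At a stricter 2-fold, 2 genes remained above (0.0219%), ENPP2 and CCL2, and 1 below (0.011%), TTC38; leukotriene B4, lipoxin A4 and lipoxin B4 had 0 genes each above and 1, 3 and 1 below at 2-fold. Leaving out an array can only keep or raise the 1.5-fold counts. The 14 genes below became 18 without leukotriene B4, 20 without lipoxin A4 and 22 without lipoxin B4.

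**Figure D2:**
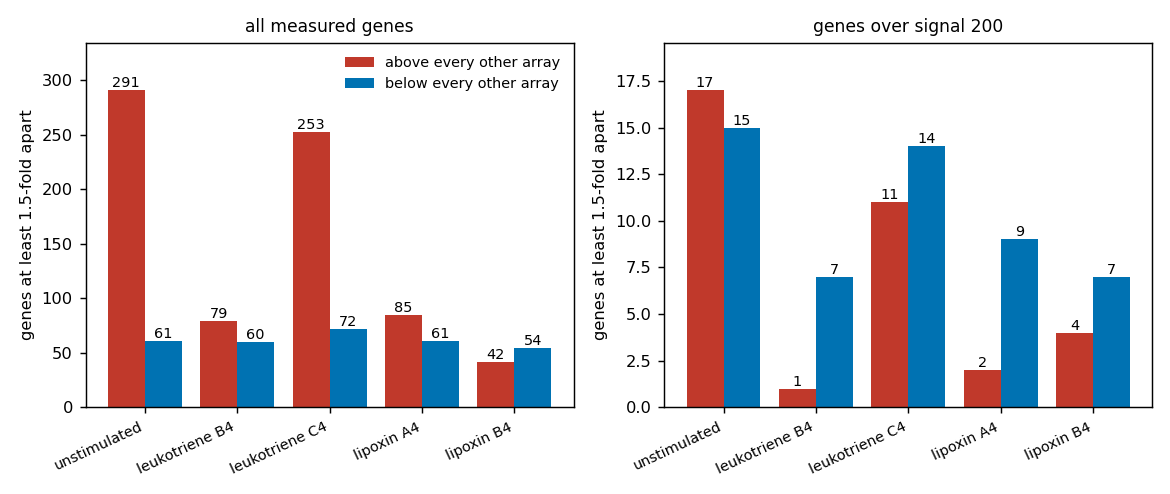
Bars count the genes for which the named array lay at least 1.5-fold above (red) or below (blue) each of the other 4 arrays, over all 15374 measured genes (left) and over the 9113 genes with a mean signal over 200 (right). Leukotriene C4 has 253 genes above in the left panel and 11 in the right, and among the compounds both are the highest bars.

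The gene furthest from all other arrays was ENPP2 (chromosome 8), the gene of autotaxin, a secreted lysophospholipase D whose product is lysophosphatidic acid. Its signal was 424 unstimulated, 395 with leukotriene B4, 1833 with leukotriene C4, 448 with lipoxin A4 and 460 with lipoxin B4. Only the leukotriene C4 value stood out, and the other 4 lay within a narrow band. The difference from unstimulated was 2.11 on the log2 scale, or 4.32-fold and 9.83 times the spread between the other compounds at that brightness. Whether more cells expressed ENPP2 or each cell held more of its RNA cannot be told apart in a bulk culture. The second ENPP2 probe set read 233, 206, 827, 282 and 235 in the same order, a difference of 1.83.

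CCL2 (chromosome 17), the chemokine MCP-1 that draws monocytes through CCR2, was the second gene. It had 769 unstimulated, 727 with leukotriene B4, 1807 with leukotriene C4, 777 with lipoxin A4 and 763 with lipoxin B4. Again the leukotriene C4 array alone was high. The difference was 1.23 on the log2 scale, 2.35-fold and 6.3 times the spread, and the gap to the nearest other array was 2.33-fold; 1 probe set measured this gene.

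A further group of genes stood above every other array by smaller steps, and for 4 of them all measured probe sets were higher with leukotriene C4. MCOLN2 (chromosome 1), a cation channel of endosomes and lysosomes, had 357 unstimulated, 331 with leukotriene B4, 679 with leukotriene C4, 388 with lipoxin A4 and 386 with lipoxin B4. Its difference was 0.93 on the log2 scale, and its second probe set differed by 0.81. Leukotriene C4 was the high array on both.

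ADAMTS1 (chromosome 21), a secreted protease that cleaves proteoglycans, had 1349 unstimulated, 1448 with leukotriene B4, 2432 with leukotriene C4, 1335 with lipoxin A4 and 1463 with lipoxin B4. The difference was 0.85 on the log2 scale and 4.8 times the spread, with 0.66 on the second probe set. The arrays without leukotriene C4 overlapped closely. IGFBP3 (chromosome 7), a carrier of insulin-like growth factors, had 381, 418, 691, 357 and 319 in the same order of arrays. Its difference was 0.86, and 0.82 on a second probe set, where lipoxin A4 was also raised at 316 against 211 unstimulated.

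NT5E (chromosome 6) encodes CD73, the surface enzyme that makes adenosine from AMP. Its signals were 1600 unstimulated, 1842 with leukotriene B4, 2833 with leukotriene C4, 1779 with lipoxin A4 and 1639 with lipoxin B4. The difference was 0.82 on the log2 scale and 5.08 times the spread. Both other measured NT5E probe sets were highest with leukotriene C4 as well, by 0.44 and 0.71 over unstimulated.

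Another gene of this group had 1 probe set. B9D2, a component of the ciliary transition zone, had 447 with leukotriene C4 and 220 to 286 elsewhere. Just outside the group, MAGEH1 had 488 against 276 to 330, TCEA2, a transcription elongation factor, had 418 against 243 to 284, and DECR2, a peroxisomal reductase of fatty acid breakdown, had 631 against 343 to 428. These 3 had gaps of 1.48-fold, 1.47-fold and 1.47-fold to the nearest array, just short of the 1.5-fold count. Another 4 genes were in the count, PCSK7, ZFP36L1, CACNG6 and LOC101928343, but in each another probe set had the opposite sign. For PCSK7, CACNG6 and LOC101928343 that probe set was dim and gave -0.07, -0.20 and -0.18 on the log2 scale, the first against the floor. ZFP36L1 had 412 with leukotriene C4 against 177 unstimulated by its brightest probe set, and its remaining measured probe sets gave -0.91 or lower (at the floor with leukotriene C4) and 0.28 or higher (at the floor unstimulated).

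**Figure D3:**
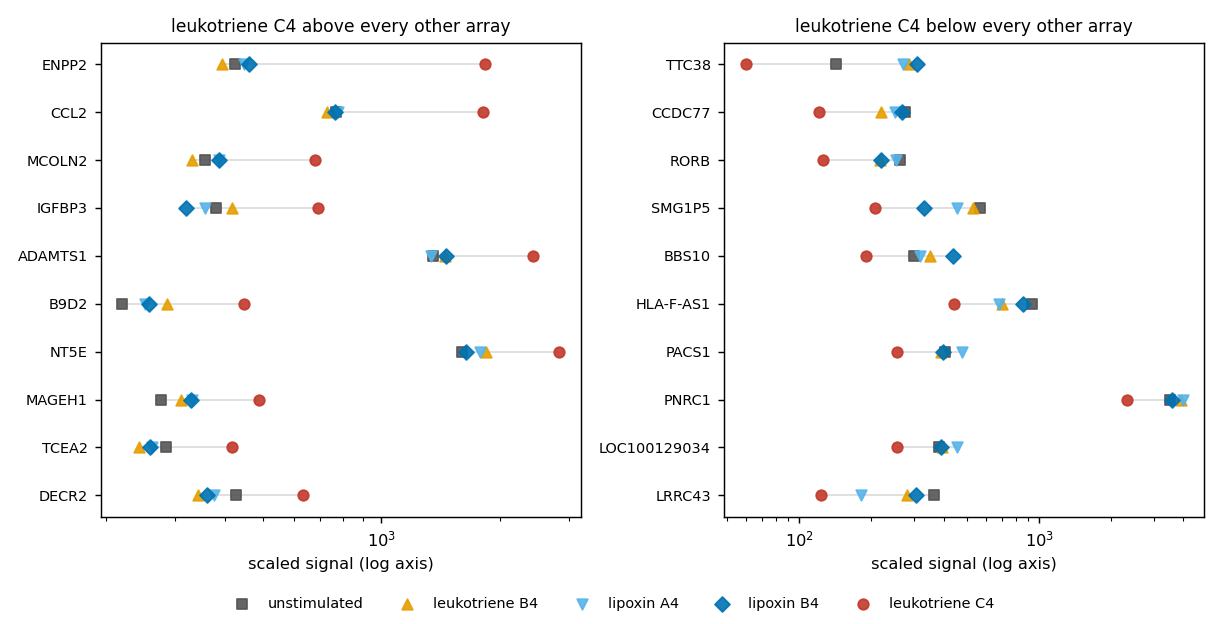
Signals on the 5 arrays (log axis) for the 10 genes furthest above (left) and the 10 furthest below (right) every other array with leukotriene C4, among genes with a mean signal over 200 whose probe sets do not disagree in sign. Red circles are leukotriene C4. The other 4 arrays lie close together for CCL2, at 727 to 777, and further apart for genes such as TTC38, at 142 to 310, and SMG1P5, at 330 to 566; ENPP2 shows the widest gap.

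Below all other arrays, TTC38 (chromosome 22), a tetratricopeptide repeat protein, was the lowest by the same measure. Its signal was 142 unstimulated, 287 with leukotriene B4, 59.7 with leukotriene C4, 271 with lipoxin A4 and 310 with lipoxin B4. Leukotriene C4 lay on the opposite side of the unstimulated array from the other 3 compounds, at -1.25 on the log2 scale against 1.01, 0.93 and 1.12. The second TTC38 probe set did not repeat that split: it was at the floor with leukotriene C4, a difference of -1.44 or lower, and was also below unstimulated, by -0.72, -1.05 and -0.79, with the others.

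PNRC1, a nuclear receptor coactivator, had 3501 unstimulated, 3913 with leukotriene B4, 2325 with leukotriene C4, 3966 with lipoxin A4 and 3578 with lipoxin B4, a difference of -0.59 on the log2 scale and 4.08 times the spread. Leukotriene C4 alone was low. HLA-F-AS1, an antisense RNA of the HLA-F locus, had 442 with leukotriene C4 against 933 unstimulated and 678 to 855 with the other compounds, and SMG1P5, a pseudogene copy of the kinase SMG1, had 207 against 566 and 330 to 529. The specificity of the probes for these 2 was not examined, so HLA-F on the opposite strand or other SMG1 copies may share their signal. CCDC77 had 121 against 276 unstimulated, RORB, an orphan nuclear receptor, 126 against 264 by its brightest probe set and at the floor with leukotriene C4 by the others (-0.39 as the mean of all its probe sets), BBS10, a chaperonin-like ciliopathy gene, 189 against 300, and PACS1, a sorting adaptor, 255 against 406. PACS1 was also lower on its second probe set, by -0.81, but there leukotriene B4 was lower still, at -1.07. Of the 14 genes in this count, ANKRD12, ZNF93, GIGYF1, LRRC27 and NFIX had another probe set of the opposite sign.

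Among dim genes the leukotriene C4 array was set apart in 1 direction. Over all measured genes, 253 lay at least 1.5-fold above every other array (1.65%), against 79 for leukotriene B4, 85 for lipoxin A4 and 42 for lipoxin B4, and 222 of the 253 had a mean signal under 100. Only 72 genes lay below (0.468%), against 54 to 61 for the other compounds. The unstimulated array, however, showed 291 above and 61 below, so the asymmetry was not particular to leukotriene C4. Likewise 543 genes crossed the floor on the leukotriene C4 array alone and 541 on the unstimulated array alone, against 133 to 291 for the remaining 3. The 18S and 28S rRNA signals were highest with leukotriene C4 and lowest unstimulated, and their part in these counts was not tested.

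The chemokine CCL20, the ligand of CCR6, appeared only with leukotriene C4. It was at the floor of 48.7 on 4 arrays and had 160 with leukotriene C4, at least 3.29-fold higher. Of the 23 CC chemokines on the list, chosen with earlier results known, 13 were measured. CCL20 and CCL17 were so through the leukotriene C4 array alone, and could not lie above the rest on another array. The next counts are therefore no evidence about CC chemokines as a group. With leukotriene C4, 3 of the 13 were at least 1.5-fold above every other array, CCL2, CCL20 and CCL17 (77.8 against the floor), and 0 of the 13 were so on any other array, beside 1.65% of all genes. The remaining bright members did not move in this way: CCL5 had 2336 unstimulated and 3032 with leukotriene C4 but 2746 with lipoxin B4, CCL23 had 533 and 720 but 741 to 810 with the other compounds, and CCL28 had 390 and 397. CCL7, another chemokine for monocytes, had 85.3 and 118, and 110 with lipoxin B4.

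The window around the start of CCL20 is shown because this gene was seen only with leukotriene C4, and those of IGFBP3 and NT5E because all their probe sets were higher with leukotriene C4 than in unstimulated cells. Each runs from 250 bases before to 50 after the annotated start, 5′ to 3′ on the gene's strand, from RefSeq on GRCh38.p14, at chr2:227813592-227813891 (plus strand), chr7:45921223-45921522 (minus strand) and chr6:85449833-85450132 (plus strand). Capitals mark matches, on either strand, to 6 short motifs. For NF-kappaB these letters were GGNNTTTCC. For the factor AP-1 they were TGANTCA, and for the cyclic AMP response element they were TGACGTCA. The antioxidant response element was searched as TGACNNNGC, the TATA box as TATAAA and the GC box as GGGCGG.
CCL20: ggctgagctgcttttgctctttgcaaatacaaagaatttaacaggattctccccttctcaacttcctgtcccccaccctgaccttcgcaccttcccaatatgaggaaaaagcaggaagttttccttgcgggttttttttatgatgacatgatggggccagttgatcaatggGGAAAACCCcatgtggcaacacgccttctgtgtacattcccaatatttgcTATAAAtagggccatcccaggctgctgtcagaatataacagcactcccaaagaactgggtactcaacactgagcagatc
IGFBP3: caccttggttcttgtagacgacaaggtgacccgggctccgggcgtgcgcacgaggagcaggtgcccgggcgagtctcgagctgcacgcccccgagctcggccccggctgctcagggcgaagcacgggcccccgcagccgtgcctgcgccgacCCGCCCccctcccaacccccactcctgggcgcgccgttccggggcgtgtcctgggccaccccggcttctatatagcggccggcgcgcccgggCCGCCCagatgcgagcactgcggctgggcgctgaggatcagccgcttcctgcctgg
NT5E: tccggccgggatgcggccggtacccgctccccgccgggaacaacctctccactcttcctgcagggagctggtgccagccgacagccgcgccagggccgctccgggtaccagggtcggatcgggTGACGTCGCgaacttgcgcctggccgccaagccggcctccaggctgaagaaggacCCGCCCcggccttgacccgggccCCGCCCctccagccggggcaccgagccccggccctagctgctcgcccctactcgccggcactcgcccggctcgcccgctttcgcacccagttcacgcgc

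In these windows CCL20 held 1 NF-kappaB match, at -79 from the start, and 1 TATA match at -29, and 0 GC boxes. IGFBP3 and NT5E held 2 GC boxes each, NT5E also held 1 antioxidant response match at -127, and no match overlapped another. The NF-kappaB letters were in 6.26% of the 35116 windows that RefSeq gave, the TATA letters in 11.5%, the GC box in 45%, the AP-1 letters in 7.71%, the cyclic AMP response letters in 1.85% and the antioxidant response letters in 13.3%. A match describes these letters and no binding. Of the 8 genes looked up 4 matched by symbol, the other being CTSZ with 6 GC boxes and 1 antioxidant response match; CCL2, MCOLN2, ADAMTS1 and HMOX1 were not shown.

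On the list of autotaxin, lysophosphatidic acid receptors and related lipid enzymes, 1 other gene was at least 2-fold apart. PLB1, a phospholipase B that releases fatty acids from phospholipids and lysophospholipids, had 71.7 unstimulated, 129 with leukotriene B4, 315 with leukotriene C4, 67.3 with lipoxin A4 and 113 with lipoxin B4. It was highest with leukotriene C4, by 2.13 on the log2 scale over unstimulated. Of 20 measured genes on the list, 2 were at least 2-fold higher (ENPP2 and PLB1) and 0 lower, beside 1.2% and 1.65% of all genes. The list was made for autotaxin with earlier results known, so counting ENPP2 in it is no evidence about the list. Of the 20, 10 lay above 0 and 10 below, with a median of -0.02 beside 0.06 for all genes. The receptors LPAR1 and LPAR2 had 260 and 341 unstimulated and 287 and 393 with leukotriene C4, and LPAR3 had 412 and 330. PLPPR3, a member of the lipid phosphatase-related family, had 2292 unstimulated, 1436 with leukotriene C4 and 1458 with leukotriene B4.

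Cytokines were mostly level. Of 20 measured, 2 were at least 2-fold higher with leukotriene C4 and 0 lower, beside 1.2% and 1.65% of all genes. IL27, a subunit of interleukin-27, had 108 and TNFSF15, the ligand TL1A, had 97.6, each at the floor on the other 4 arrays. This makes them at least 2.22-fold and at least 2.01-fold higher. Both were counted as measured through the leukotriene C4 array alone, so the 2 of 20 is no evidence about cytokines as a group. IL6 followed at 77.6, with 53.7 on the lipoxin A4 array and the floor elsewhere. The bright inflammatory cytokines showed no such step: IL1B had 1020 unstimulated and 1117 with leukotriene C4, with 1144 for leukotriene B4, and TNF had 559 and 444, the lowest of the 5 arrays. CXCL8, the neutrophil chemokine interleukin-8, had 896 unstimulated, 896 with leukotriene B4, 1124 with leukotriene C4, 701 with lipoxin A4 and 605 with lipoxin B4, a difference of 0.33 on the log2 scale.

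Of 20 measured genes of prostaglandin synthesis and reception, 2 were at least 1.5-fold higher with leukotriene C4 and 2 lower, beside 5.69% and 6.5% of all genes, and the median was 0.01. PTGES, the inducible prostaglandin E synthase, had 71.4 unstimulated, 62.1 with leukotriene B4, 138 with leukotriene C4 and the floor with both lipoxins, and its second probe set was above the floor with leukotriene C4 alone, at 67.4. PTGER1, a Gq-coupled prostaglandin E2 receptor, had 109 with leukotriene C4 and 53.3 or less elsewhere. PTGS2, the inducible cyclooxygenase, was instead lowest with leukotriene C4, at 95.6 against 161 unstimulated and 134 to 172 with the other compounds. PTGS1, the constitutive cyclooxygenase, had 309 and 328, and the receptor PTGER4 had 3731 and 3675.

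Of 22 measured targets of NRF2, the transcription factor of the antioxidant response, 1 was at least 2-fold higher with leukotriene C4 and 0 lower, beside 1.2% and 1.65% of all genes. This was HMOX1, haem oxygenase 1, which had 95.3 unstimulated, 108 with leukotriene B4, 210 with leukotriene C4, 93.5 with lipoxin A4 and 130 with lipoxin B4, a difference of 1.14 on the log2 scale but only 2.21 times the spread at this brightness. It was highest with leukotriene C4. Of the 22, 16 lay above 0 and 6 below, with a median of 0.20 against 0.05, 0.06 and -0.05 for leukotriene B4, lipoxin A4 and lipoxin B4. Bright genes in general lay above 0 with leukotriene C4. Over signal 200, where 19 of the 22 fell, 6224 of all 9113 genes lay above 0. The median there was 0.10 for all genes and 0.18 for the NRF2 targets. Above signal 2000 the median of all genes was 0.14, against 0.05 to 0.06 with the other compounds. Among bright members, TXN, thioredoxin, had 14886 unstimulated and 17621 with leukotriene C4, and its reductase TXNRD1 had 2868 and 3375, both the highest of the 5 arrays. GCLM, a subunit of the enzyme that starts glutathione synthesis, had 2262 and 2601, with 2633 to 2873 for the other compounds. NQO1, a quinone reductase, had 2215 and 2015, and SRXN1 had 768 and 732. CBR1, carbonyl reductase 1, had 2578 unstimulated and 3798 with leukotriene C4, with 3776 for leukotriene B4.

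KYNU, the kynureninase of tryptophan breakdown, had 58.1 unstimulated, 93.3 with leukotriene B4, 192 with leukotriene C4, 104 with lipoxin A4 and 122 with lipoxin B4. All 4 compounds were above unstimulated, and leukotriene C4 was the highest, by 1.72 on the log2 scale; the second KYNU probe set was at the floor on both arrays. Among secreted proteases and inhibitors, TIMP3 had 87.6 and ADAMTS4 had 78.8 with leukotriene C4, and neither passed 55.4 on another array. MMP9 had 173 and 148, and TIMP1 had 4784 and 5598.

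**Figure D4:**
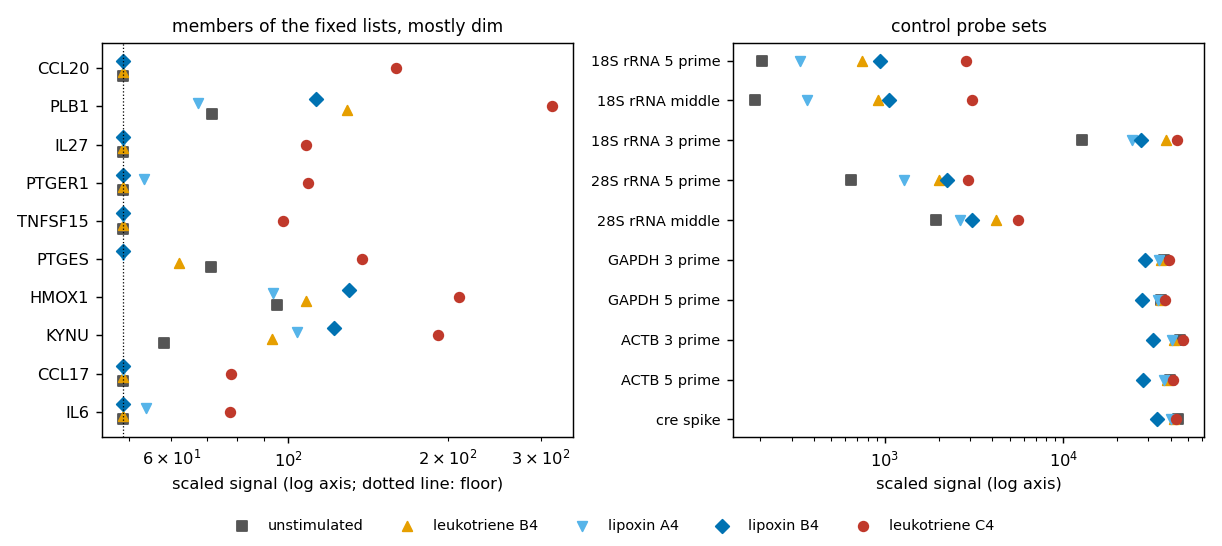
Signals (log axes) of 10 members of the gene lists (left; the dotted line is the floor of 48.7) and of control probe sets (right), on the 5 arrays. The 10 genes were picked among list members highest with leukotriene C4 (red circles), at 77.6 to 315. Members lowest with it, such as PTGS2 and TNF, are not shown. Leukotriene C4 is also the highest array for each ribosomal RNA probe set. GAPDH, ACTB and the cre spike read 0.978 to 1.07 times unstimulated on the leukotriene C4 array and 0.704 to 0.783 times on the lipoxin B4 array.

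Much of the leukotriene pathway itself was expressed and nearly level, but several of its members were dim or at the floor. CYSLTR1, the main receptor for leukotrienes D4 and C4, had 1044 unstimulated, 1240 with leukotriene B4, 1136 with leukotriene C4, 1166 with lipoxin A4 and 1040 with lipoxin B4. The 5 arrays overlapped, and the difference for leukotriene C4, 0.12 on the log2 scale, was 0.631 times the spread. CYSLTR2 was near the floor, at 75.7 and 70.2, and GPR17, OXGR1 and P2RY12 did not exceed the floor on any array. LTB4R, the high-affinity leukotriene B4 receptor, had 905 unstimulated and 703 with leukotriene C4, with 651 to 689 for the other compounds. ADGRE5, an adhesion receptor that stood in this list although it is not a leukotriene receptor, had 988 and 1216.

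Of the 13 measured synthesis genes 9 lay above 0 and 4 below with leukotriene C4, with a median of 0.06, the same as all genes, and 0 were 2-fold apart, beside 2.85% of all genes. ALOX5AP, which encodes FLAP, had 34319 unstimulated and 38890 with leukotriene C4. ALOX5 itself was dim at 143 and 140, PLA2G4A, the cytosolic phospholipase that releases arachidonic acid, had 1869 and 2149, and LTA4H had 3681 and 3867. LTC4S, the leukotriene C4 synthase, had 177 unstimulated, 144 with leukotriene B4 and 228 with leukotriene C4, but also 223 and 231 with the lipoxins. MGST2, a second enzyme with this activity, had 4871 and 4914.

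Export and conversion genes were likewise close. ABCC1, the exporter MRP1, had 828 unstimulated and 1008 with leukotriene C4, with 959 for leukotriene B4, a difference of 0.28 that its other probe set did not repeat at -0.30. ANPEP, an aminopeptidase of the cell surface, had 2100 and 1784, the lowest of the 5 arrays, and DPEP3, a dipeptidase, had 5155 and 5629. The transferase GGT1 exceeded the floor with lipoxin B4 alone, at 69.9, and GGT5 was under the floor on all 5 arrays. The dipeptidase DPEP2 was at the floor both unstimulated and with leukotriene C4, and DPEP1 had no probe set of its own. GGT7 was the member furthest apart: it had 162 unstimulated, 148 with leukotriene B4, 66.4 with leukotriene C4, 83.8 with lipoxin A4 and 91.3 with lipoxin B4, but its probe sets disagreed, at -1.25 or lower (a floored value) and 0.31 on the others.

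Several of the largest differences were shared with other compounds, all read against the same unstimulated array. CTSZ, the lysosomal carboxypeptidase cathepsin Z, had 2009 unstimulated, 2093 with leukotriene B4, 4568 with leukotriene C4, 3440 with lipoxin A4 and 3392 with lipoxin B4. Leukotriene C4 was the highest, by 1.18 on the log2 scale and 8.13 times the spread, both lipoxins were intermediate, and leukotriene B4 stayed beside the unstimulated array. A dim second CTSZ probe set was at the floor unstimulated and at least 1.12 higher on the log2 scale with leukotriene C4. CASTOR2, a relative of the arginine sensor of the mTORC1 pathway, had 169 unstimulated and 593 with leukotriene C4, but 439 to 505 with every other compound. Of 27 measured genes of amino acid sensing by mTORC1, CASTOR2 and DEPTOR were the 2 at least 1.5-fold higher, beside 5.69% of all genes. By that fold 0 were lower, beside 6.5%. DEPTOR had 144 unstimulated and 245 with leukotriene C4, but 271 with leukotriene B4.

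N4BP2 had 509 unstimulated, 1030 with leukotriene C4 and 940 with leukotriene B4, against 637 and 698 with the lipoxins, so both leukotrienes were the high arrays. METTL25B had 187 and 439, with 332 for leukotriene B4, 342 for lipoxin B4 and 161 for lipoxin A4. MED18, a Mediator subunit, had 255 and 497, with 281 to 378 elsewhere, and its second probe set differed by 0.47. UBBP2, a ubiquitin pseudogene, and MAST3, a kinase, were 2.44-fold and 0.98 on the log2 scale higher, and for both leukotriene B4 was higher than leukotriene C4.

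Among the lower genes the array of unstimulated cells was often the one apart. ATXN2L, a stress granule protein related to ataxin 2, had 975 unstimulated, 427 with leukotriene B4, 368 with leukotriene C4, 527 with lipoxin A4 and 417 with lipoxin B4. All 4 compounds were below unstimulated, and the second probe set differed by -1.34 with leukotriene C4. NAT14 had 1796 unstimulated and 710 with leukotriene C4, with 551 for leukotriene B4 and 693 for lipoxin B4, RNF208 had 424 and 132, and SETD1A, a histone H3 lysine 4 methyltransferase, had 374 and 154. For these 3, leukotriene B4 was as low or lower, at 551, 118 and 133. ZBTB7B, a transcription factor, had 552 and 241, with 337 to 501 for the other compounds, and was lower on both probe sets. SREBF1, the master regulator of lipid synthesis, had 1259 unstimulated and 764 with leukotriene C4, with 893 to 1046 elsewhere, and its second probe set differed by -1.45. PYGB had the largest difference of all, at least 5.65-fold higher, but all 4 compounds showed it, the unstimulated value lay under the floor and the second PYGB probe set, at the floor with all 4, differed by -0.28 or lower.

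Set against each compound directly, leukotriene C4 differed by at least 2-fold in 24 of 9113 bright genes from leukotriene B4 (0.263%), in 23 from lipoxin A4 (0.252%) and in 25 from lipoxin B4 (0.274%). The 3 pairs without leukotriene C4 differed in 20 (leukotriene B4 and lipoxin A4), 13 (leukotriene B4 and lipoxin B4) and 12 (both lipoxins). At 1.5-fold the 3 pairs with leukotriene C4 gave 236 (2.59%), 202 (2.22%) and 242 (2.66%) genes, and the other 3 gave 164, 160 and 149. Leukotriene C4 carries glutathione, while leukotriene B4 is a dihydroxy acid made from the same epoxide. Of the bright genes 2-fold apart between these 2 arrays, 12 were higher with leukotriene C4 and 12 were lower. At the same dose and time, ENPP2 had 1833 with the conjugate and 395 with leukotriene B4, CCL2 had 1807 and 727, and CTSZ had 4568 and 2093. ENPP2, CCL2 and CTSZ were named for their high leukotriene C4 values, so their direction here is no evidence about the 2 compounds. CASTOR2, at 593 and 439, and N4BP2, at 1030 and 940, were closer. Of the 6 pairs of compounds none was tested, since each compound has 1 array.

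Broad gene groups shifted little. The median difference of all 15374 genes was 0.06 on the log2 scale with leukotriene C4 and 0.00 with each of the other compounds, and 8821 genes lay above 0 and 5638 below; with quantile normalization the median was 0.01. Cytosolic ribosomal proteins (median 0.12) and mitochondrial respiratory chain genes (0.15), 23 measured members each, all lay above 0, but their medians were 0.00 and 0.04 after quantile normalization. NRF2 targets kept a median of 0.11 after it and metallothioneins, which bind zinc and copper, went from 0.24 to 0.29, with 6 of 7 above 0. Heat shock proteins, the chaperones, had 12 of 13 above 0 and a median of 0.19, which became 0.08; HSPD1 had 32030 and 38711 and HSPA6 had 67.4 and 113, with 135 for leukotriene B4. Genes of the kynurenine pathway and aryl hydrocarbon receptor had a median of 0.21, against 0.14 to 0.18 with the other compounds; after quantile normalization it was 0.07, against 0.14 and 0.11 with lipoxins A4 and B4 and 0.06 with leukotriene B4.

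NF-kappaB subunits and feedback genes had a median of 0.05 with 12 of 23 above 0. NFKBIA, the feedback inhibitor, had 1784 unstimulated and 1433 with leukotriene C4, TNFAIP3 had 1420 and 1508, and SOD2 had 272 and 447, with 350 to 539 for the other compounds. Of 34 measured genes of Gq, calcium and inositol phosphate signalling, ITPKC, an inositol trisphosphate kinase, was the 1 member 2-fold apart, beside 2.85% of all genes apart in either direction, with 144 against the floor and 77.1 to 105 with the other compounds. CXC and other chemokines had the lowest median of the 40 lists, -0.32, and lipoxins A4 and B4 had the same value. That median was set by CXCL9, at 60.7 unstimulated and at the floor with every compound.

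**Figure D5:**
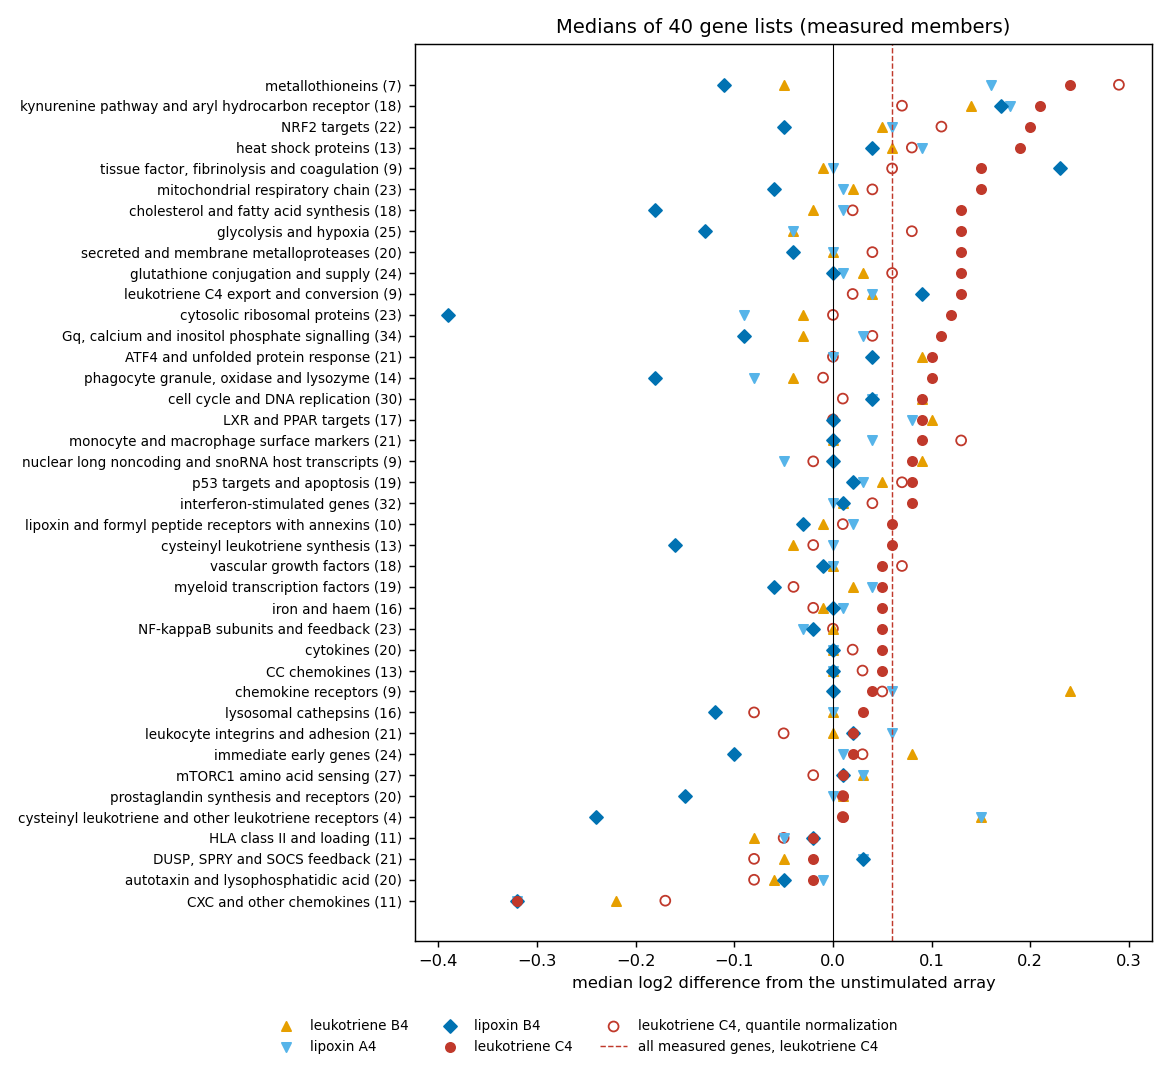
Median log2 difference from the unstimulated array for 40 gene lists, with the number of measured members in brackets. Filled markers are the 4 compounds, open red circles are leukotriene C4 after quantile normalization, and the dashed line is the median of all genes with leukotriene C4 (0.06); list medians for leukotriene C4 run from -0.32 to 0.24 and most lie near that line.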

How the data were processed

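Total RNA of MonoMac6 cells was hybridised to 1 array for each of 5 conditions. The deposited values are linear intensity signals for 54675 probe sets; the authors used GCOS 1.4, per the submitters' processing notes, and the sources used here do not name the signal algorithm. The trimmed mean was 499.9 on every array, so arrays had been scaled before deposit. Control probe sets (62) were left out. Genes were named from the platform annotation: 41097 probe sets carry 1 symbol, 1801 several and 11777 are not listed; 41043 matched the gene table of GRCh38.p14.

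Signals were taken to log2, scaled to an equal median over the upper 50% of probe sets and floored at the 50th percentile (48.7). Each gene is its brightest probe set. Differences from a floored value are bounds ("at least"). No test was run, because the number of arrays, 1 for each condition, limits the precision. The counting was tested on simulated data with the same noise at every signal, unlike these arrays. That checked the steps and says nothing about the error of the counts given here. Some named genes were chosen among those over signal 200 with probe sets not of opposite sign. These were the 10 each way furthest from every other array and the 8 each way with the largest further difference from unstimulated. Others came from all measured genes, whatever their signal or probe set signs. These were list members at least 1.5-fold apart (no more than 4 per list) and the leukotriene pathway. Up to 4 each way known as a bound with a second probe set 2-fold apart were added, for 123 genes in all. PYGB, the genes of opposite probe sets and list members under 1.5-fold were chosen after their values were seen. Members, 40 lists and 8 marker lists were chosen with earlier results of these data known. Alternatives were other floors, scalings, probe set rules, signal minimums, folds and leaving out an array. Python 3.11.15, numpy 2.4.6, pandas 2.3.3 and matplotlib 3.10.9 were used.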

Additional observations from a re-analysis of the deposited data

Results flagged for a closer look

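Ribosomal RNA is read by control probe sets outside the gene comparisons, and these were higher on the leukotriene C4 array than on the unstimulated array. The 18S rRNA ratio was 14 for the 5′ probe set, 16.5 for the middle and 3.41 for the 3′ one. The 28S rRNA ratio was 4.54 for the 5′ and 2.88 for the middle probe set. The other compounds read 1.36 to 5.67 times the unstimulated signal on these 5 probe sets. No group has more than 1 array, so no array could be set against its own replicates.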

How the results depend on the processing

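Precision is limited by 1 array per condition, and dim genes rest on the floor. In the order higher, then lower, than unstimulated, 2-fold counts over all measured genes were 1219 and 1351 with the floor at the 30th percentile, 6 and 15 at the 70th, 875 and 1000 at 1.5-fold and 24 and 24 at 3-fold. Over signal 200 they were 6 and 15 with the 70th percentile floor, 7 and 17 with the mean of all probe sets, 163 and 160 at 1.5-fold and 3 and 1 at 3-fold; with a minimum of 100 they were 55 and 86, and with 500 they were 4 and 10. Genes 1.5-fold above and below every other array numbered 31 and 49 with a minimum of 100, 4 and 3 with 500, and 2 and 1 at 2-fold. Those below numbered 5 with the 70th percentile floor and 7 with the mean of all probe sets. With an array left out they can only stay or rise, and were 18 without leukotriene B4, 20 without lipoxin A4 and 22 without lipoxin B4. Quantile normalization gave 214 higher and 216 lower over all genes, and the signals as deposited 152 and 313. Of the 123 named genes, 6 changed sign with the mean of all probe sets: CD79B to 0.18, CYP1A2 to -0.28, GSTM1 to -0.10, ITPKB to -0.09, LPCAT3 to 0.44 and VDR to -0.22. These settings build the counts from other genes, folds or probe sets. Each of the 6 genes had another measured probe set of the opposite sign to its brightest, which the mean takes in. Why those probe sets disagree was not tested. No paired analysis was possible because each condition has 1 array.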

Other observations

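Surface receptors of the myeloid lineage were mostly dim. Of 21 measured monocyte and macrophage surface genes 5 were at least 1.5-fold higher with leukotriene C4 and 0 lower, beside 5.69% and 6.5% of all genes. None of these higher genes lay 1.5-fold above every other array. Only 5 of the 21 measured genes had a mean signal over 200. Dim genes passed this fold more often: 1.79% of genes over signal 200 were higher by it. The share of all genes is therefore a low yardstick for this mostly dim list. TREM2, a lipid-sensing receptor of macrophages, had the floor unstimulated, 104 with leukotriene B4, 108 with leukotriene C4, 166 with lipoxin A4 and 102 with lipoxin B4; each of the 4 compounds was above it. SIGLEC5 and SIGLEC7, inhibitory receptors for sialic acid, had 59.6 and 79.9 unstimulated and 129 and 154 with leukotriene C4. Another compound was higher for each: SIGLEC5 had 173 with leukotriene B4 and SIGLEC7 had 176 with lipoxin B4. CD86, a co-stimulatory ligand, had 322 and 465, with 422 for leukotriene B4. PROCR, the endothelial protein C receptor, had 136 unstimulated and 263 with leukotriene C4, with 226 for lipoxin B4.

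Interferon-stimulated genes did not move as a group: 20 of 32 measured lay above 0 and 10 below, with a median of 0.08. OAS3 had 171 unstimulated and 64.1 with leukotriene C4, but also 86.3 with leukotriene B4, 105 with lipoxin A4 and the floor with lipoxin B4. IFI16, a DNA sensor, had 3023 and 3985, the highest of the 5 arrays, and ISG15 had 380 and 534, against 419 to 433 with the other compounds.

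A probe set without a listed gene had 303 unstimulated, 99.1 with leukotriene C4 and 235 to 239 with the other compounds. It was picked after its values were seen.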
